A study of Mus musculus with 12 samples.

Results

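Cardiac fibroblasts that had been cultured for 3 days with a control retrovirus were compared with fibroblasts taken straight from the heart. The comparison covers every gene with at least 1 CPM (CPM is a gene's read count normalised to the library's total of reads assigned to genes) in at least 2 of the 4 libraries, which were 13585 of the 23423 genes in the deposited table. Both groups started from hearts of CD1 mice at P1.5 (postnatal day 1.5), digested with enzymes and purified for Thy1+ cells by magnetic sorting (MACS). The 2 fresh libraries were made from such sorted cells. For the 2 control cultures, sorted cells were plated on gelatin in IMDM with 20% fetal bovine serum and kept overnight. The medium was then changed, which removed unattached cells. They next received 50 µl of retrovirus made from the empty plasmid pMXs-puro, and RNA was collected after 3 days (d3). No gene was deleted and no factor delivered in either group, by the treatment labels. The titles of the control cultures name lacZ where their other labels name an empty vector, so they are called control cultures here. Culture, serum, adhesion to plastic, virus, the loss of unattached cells and time changed together between the groups and cannot be told apart.

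Fibroblasts of the heart build and maintain the extracellular matrix, and in the tissue they lie beside endothelial cells, pericytes, myocytes and macrophages. Tissue digestion is known to switch on immediate early genes within minutes. On a stiff plastic surface with serum, isolated fibroblasts are known to take on features of myofibroblasts, the contractile and matrix-secreting form seen in scars. Culture also selects for cells that attach. Control cultures of this kind serve as the reference for fibroblasts that receive reprogramming factors, so the comparison describes the state from which that work starts.

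Depth in the 4 libraries was 72626731 to 94005212 assigned reads, within the 49320858 to 94005212 of the 12 libraries in the series. Levels are given as scaled CPM, which is CPM after division by each library's median-of-ratios factor (0.968 to 1.06 over the series), and they are not corrected for gene length. Fold changes are control cultures over fresh fibroblasts in log2(scaled CPM + 0.5) units and carry their standard error (SE); low genes change by more than this scale shows. Replicates of the same group differed with an SD of 0.0796 log2 units in the fresh libraries and 0.0951 in the control cultures, and in both groups by more than counting noise. Neither the number of animals pooled nor the number of separate cultures is in the labels, so the spread between replicates may be technical. The spread behind each p-value is pooled over the replicates of all 6 groups and drawn toward a trend over genes.

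Most genes differed between the groups. At an adjusted p below 0.05, 5976 genes were higher in the control cultures (44.0% of those compared) and 5902 were lower (43.4%), and 1707 passed in neither direction. With a change of at least 2-fold added, 1663 genes were higher (12.2%) and 2440 lower (18.0%), and these shares are the background for each gene list. The median log2 fold change over all genes compared was 0.01 and the median size of the change 0.63. For 12689 of the genes (93.4%) the 2 groups did not overlap, which is the background where a lack of overlap is given below. Of the 13585 genes, 965 reached 1 CPM in fresh libraries only and 292 in control cultures only. Those genes had to differ by the way they were chosen, and without them 1594 genes were at least 2-fold lower and 1422 higher. Of the 965, 846 were at least 2-fold lower, and of the 292, 241 were at least 2-fold higher. The counts of gene lists below, and the background shares, include such genes. After quantile normalization the 2-fold counts over all 13585 genes were 2131 lower and 2092 higher.

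**Figure D1:**
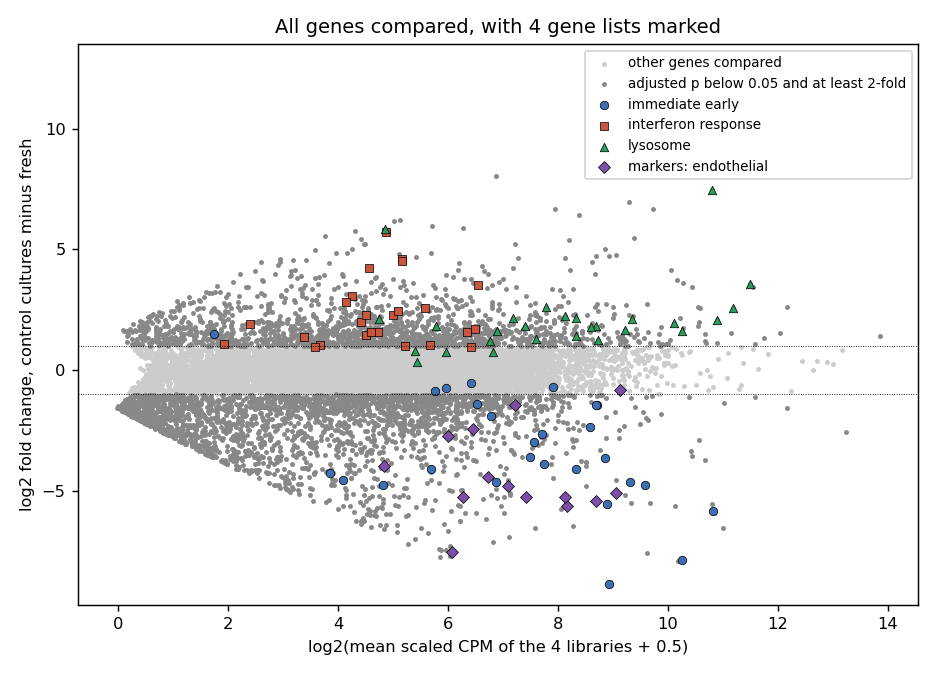
Each point is 1 of the 13585 genes, with its level over the 4 libraries on the x axis (log2 of the mean scaled CPM + 0.5) and its log2 fold change, control cultures minus fresh fibroblasts, on the y axis. Dotted lines mark a 2-fold change; immediate early and endothelial genes lie below the lower line with few exceptions, and interferon response and lysosome genes lie near or above the upper line.

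Markers of most cell types differed between the groups. Thy1, the surface protein used for the sort, was at 146 and 148 scaled CPM in the fresh libraries and 299 and 312 in the control cultures (log2 fold change 1.06, SE 0.059, limma adjusted p = 2.1e-12), with both cultures above both fresh libraries. Endothelial genes fell: 0 of 14 were at least 2-fold higher and 13 at least 2-fold lower (median log2 fold change -4.94), and the 14 genes summed to 5252 and 5292 scaled CPM in the fresh libraries and 619 and 645 in the control cultures. The vascular cadherin Cdh5 was at 1019 and 1039.9 scaled CPM in the fresh libraries and 29.2 and 30.6 in the control cultures, and the endothelial tight junction gene Cldn5 at 133 and 135 scaled CPM in the fresh libraries and 0.226 and 0.237 in the control cultures. Cldn5 thus went from a level far above the 1 CPM limit to 1 below it, with no overlap. In bulk RNA, fewer cells of a type and less RNA of these genes per cell cannot be told apart.

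Macrophage genes moved in the other direction. Of this list, 9 of 15 were at least 2-fold higher and 1 at least 2-fold lower (median log2 fold change 1.19), and the 15 genes summed to 1421 and 1407 scaled CPM in the fresh libraries and 4590.1 and 4346 in the control cultures. The lysozyme gene Lyz2 made up much of that sum, at 164 and 159 scaled CPM in the fresh libraries and 2239 and 2039.9 in the control cultures. The complement subunit C1qa rose from 139.9 and 137 to 323 and 312 scaled CPM, and the pan-leukocyte phosphatase Ptprc (CD45) from 47.3 and 50.4 to 58.5 and 59.0. The chemokine receptor Cx3cr1 fell, from 78.9 and 77.0 to 18.2 and 22.6, and the macrophage growth factor receptor Csf1r fell by a smaller amount, from 264 and 267 to 192 and 206. The markers of this list therefore did not share 1 direction or size.

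Genes of pericytes and smooth muscle split by function. The pericyte channel genes Abcc9 (271 and 275 against 1.93 and 1.65 scaled CPM, fresh against cultured) and Kcnj8 (46.3 and 46.7 against 0.494 and 0.203) and the signalling regulator Rgs5 (173 and 182 against 2.64 and 2.38) fell by 119.6, 56.2 and 59.3 times. In the same list the smooth muscle actin Acta2 and calponin Cnn1, which myofibroblasts also express, rose. Neutrophil and mast cell genes were at least 2-fold lower for 6 of 8, and the sum of the list was 119.6 and 119.6 scaled CPM in the fresh libraries and 34.3 and 36.1 in the control cultures. Lymphocyte genes were low in all 4 libraries, with a sum of 15.2 and 13.2 scaled CPM in the fresh libraries and 6.92 and 7.46 in the control cultures. Of the 10 genes listed, 5 entered the comparison, and 4 of these were at least 2-fold lower. Near the 1 CPM limit, a gene that entered through the fresh libraries only had to be lower, so this count is no separate support. The adult beta-globin gene Beta-s had 6262 and 6737 reads in the fresh libraries and 1 and 3 reads in the cultures.

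Cardiomyocyte genes split as well: 3 of 14 were at least 2-fold higher and 10 at least 2-fold lower (median log2 fold change -2.35). The ventricular light chain Myl2 was at 241 and 249 scaled CPM in the fresh libraries and 4.18 and 4.98 in the control cultures, and the alpha myosin heavy chain Myh6 at 673 and 679 scaled CPM in the fresh libraries and 47.1 and 50.4 in the control cultures. Both fell, as did the calcium pump regulator Pln and the beta heavy chain Myh7. Cardiac troponin T, Tnnt2, was instead at 181 and 189 scaled CPM in the fresh libraries and 2419 and 2184 in the control cultures (log2 fold change 3.63, SE 0.059, limma adjusted p = 1.0e-20), and the atrial light chain Myl7 at 17.1 and 16.9 scaled CPM in the fresh libraries and 230.1 and 245 in the control cultures. In the fresh cardiomyocyte libraries of the series Tnnt2 was at 2089.8 and 1978. Those libraries also held fibroblast markers, at a sum of 23585 and 23445 scaled CPM, and endothelial markers, at 6590 and 6574. Their values here and below are therefore not those of cardiomyocytes alone. The ryanodine receptor Ryr2, the calcium release channel, rose from 43.0 and 42.2 to 108 and 122.

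Fibroblast markers were present in both groups, with losses among them. Of the 12 genes, 1 was at least 2-fold higher and 7 at least 2-fold lower (median log2 fold change -1.76). The fibrillar collagen chain Col1a2 (6356 and 6230.4 against 6116 and 6707 scaled CPM, adjusted p = 0.72, limma) and the fibroblast transcription factor Tcf21 (166 and 165 against 158 and 158, adjusted p = 0.11, limma) did not pass the test; Tcf21 passed as lower where the CPM were left unscaled or genes under 5 CPM were removed. Dermatopontin Dpt (689 and 689 against 44.6 and 42.8) and the receptor Pdgfra (463 and 472 against 104 and 103) fell, with no overlap. The epicardial list had 4 of 11 genes at least 2-fold lower, led by Wt1 (52.6 and 49.9 against 14.6 and 13.4), and 1 at least 2-fold higher (median log2 fold change -0.06). In the glia and neuron list, 2 of 6 genes were at least 2-fold higher and 2 at least 2-fold lower (median log2 fold change -0.76). With genes under 5 CPM removed the median was 3.67, so its sign depended on the filter. The neuronal tubulin Tubb3 rose from 4.52 and 4.75 to 68.7 and 64.4 scaled CPM. Dopamine beta-hydroxylase Dbh rose from 0.334 and 0.143 to 17.3 and 16.4. The other 4 genes, Cdh19 among them, were lower. How far these changes in cell type markers enter the other gene lists was not tested.

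**Figure D2:**
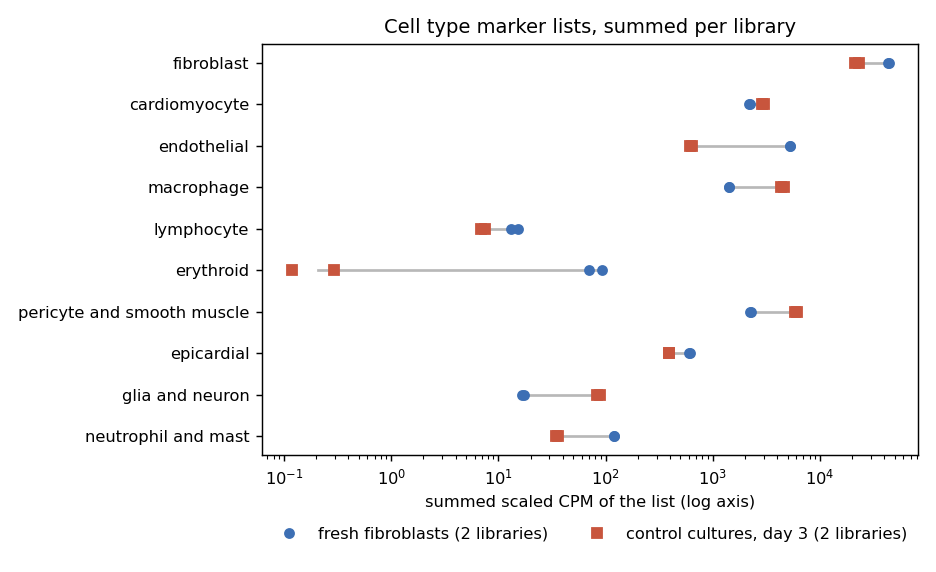
Summed scaled CPM (x axis, log scale) of 10 lists of cell type markers in each library, with fresh fibroblasts as circles, control cultures as squares and a line between the group means. Endothelial, erythroid, lymphocyte and neutrophil and mast cell sums lie lower in the cultures, as do fibroblast and epicardial sums. Macrophage, cardiomyocyte, pericyte and smooth muscle, and glia and neuron sums lie higher. A sum can follow a few high genes. Of the 14 cardiomyocyte genes, 10 were at least 2-fold lower and 3 higher. Of the 10 pericyte and smooth muscle genes, 7 were at least 2-fold lower and 2 higher.

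The largest single increases and decreases gave the range of the response. Scg2, which encodes the granin secretogranin II of secretory vesicles (chr1:79434669-79440120, GRCm38), had the largest increase at 0.428 and 0.338 scaled CPM in the fresh libraries and 248 and 220.3 in the control cultures (log2 fold change 8.05, SE 0.068, limma adjusted p = 6.3e-25). It went from 41 and 26 reads to 23105 and 19537. Gpnmb, a transmembrane glycoprotein of lysosomes and melanosomes (chr6:49036546-49070929), was at 21.7 and 18.4 scaled CPM in the fresh libraries and 3623 and 3484 in the control cultures (log2 fold change 7.44, SE 0.068, limma adjusted p = 2.2e-24). Osteopontin, Spp1, a secreted matrix protein and cytokine, was at 9.49 and 9.32 scaled CPM in the fresh libraries and 1360.0 and 1129 in the control cultures (log2 fold change 6.97, SE 0.060, limma adjusted p = 8.9e-25), with a spread between the 2 cultures that was small beside the change. The matricellular gene Wisp2 was at 4.43 and 4.07 scaled CPM in the fresh libraries and 481 and 501 in the control cultures, 103-fold higher.

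The other genes among the 15 largest increases were of mixed kinds. They included the histidine ammonia-lyase Hal, the skeletal myosin heavy chain Myh1, the growth factor binding protein Igfbp2, the glucocorticoid-activating enzyme Hsd11b1 and the phosphatase Ptprq. They also held the proton pump subunit Atp6v0d2, stromelysin Mmp3, the interferon-induced Ifit1, the melanocyte antigen Mlana and the cardiac ankyrin repeat gene Ankrd1. Their folds ran from 73.5 for Hal to 43.4 for Ptprq. Ankrd1 stood at the highest level of these in the cultures, at 29.1 and 29.2 scaled CPM in the fresh libraries and 1311 and 1299.8 in the control cultures.

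Tbx5 was the fifth of the 15 largest increases in that ranking, which left out names such as 9930013L23Rik. It is one of the factors delivered to other cultures of the series. This T-box transcription factor (chr5:119832668-119885219) was at 6.93 and 7.51 scaled CPM in the fresh libraries and 644 and 677 in the control cultures (log2 fold change 6.42, SE 0.050, limma adjusted p = 3.3e-25). The fresh cardiomyocyte libraries held 14.4 and 16.1, and the 2 libraries given MGT (a retrovirus with Mef2c, Gata4 and Tbx5) held 1768 and 1844. The control cultures thus lay above both kinds of fresh library and below the MGT cultures. Mef2c rose from 139 and 138 to 313 and 330.1 and Gata4 from 219 and 218 to 340.2 and 374. Gene counts do not show whether such reads came from the chromosomal gene or from vector RNA, and the source of the Tbx5 reads was not tested.

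Among the 15 largest decreases, immediate early and heat shock genes stood beside vascular genes. Fosb, an AP-1 subunit (chr7:19302696-19310051), was at 957 and 981 scaled CPM in the fresh libraries and 1.52 and 1.77 in the control cultures, and Fos (chr12:85473890-85477273) at 2452 and 2432 scaled CPM in the fresh libraries and 9.52 and 10.7 in the control cultures. The apelin receptor Aplnr, Cldn5, the lipase anchor Gpihbp1, the harmonin-binding Ushbp1, the endothelial antigen Cd300lg and the endothelial regulator Apold1 went from 116 and 115, 133 and 135, 111 and 116, 130.3 and 129, 121 and 125 and 224 and 222 scaled CPM in the fresh libraries to at most 1.30 in any culture. Aplnr had 11074 and 8811 reads in the fresh libraries and 1 and 7 in the cultures. The remaining genes were tetranectin Clec3b, Slc26a10, Tmem255a, Beta-s and Abcc9.

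**Figure D3:**
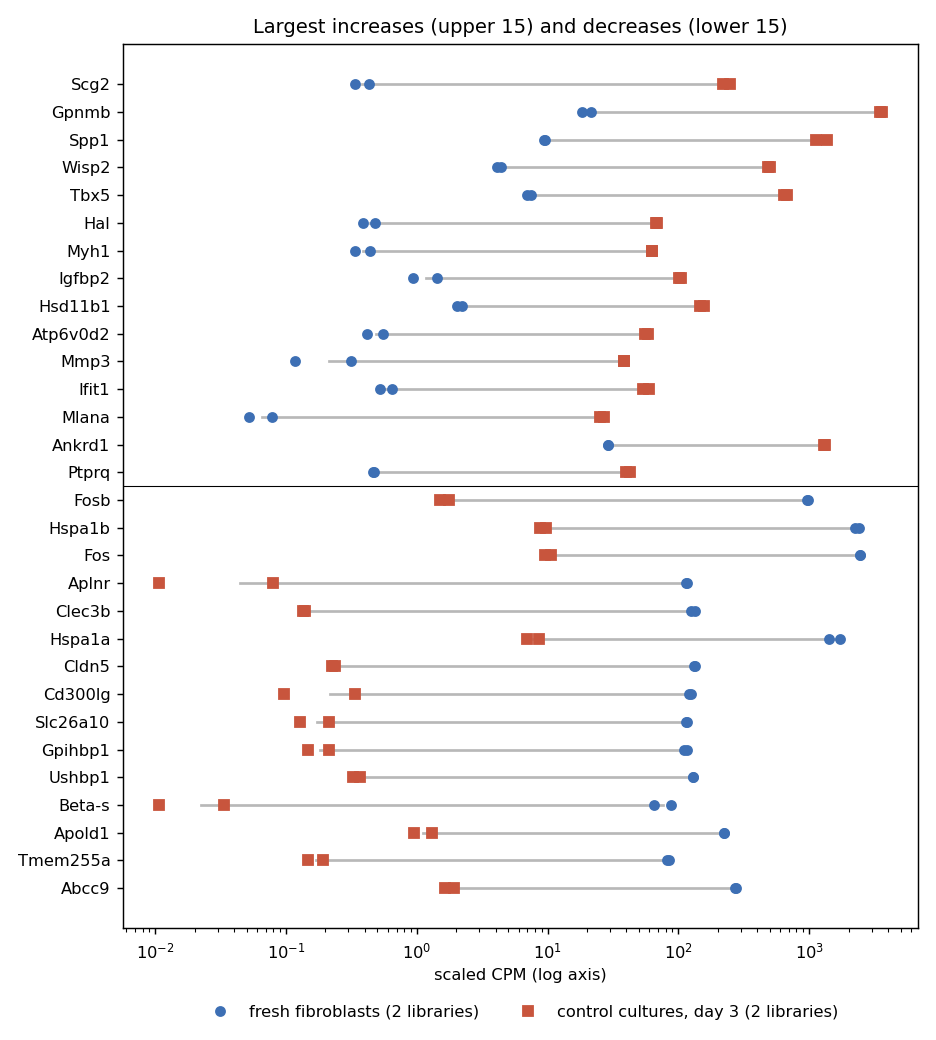
Scaled CPM (x axis, log scale) of the 15 genes with the largest increase and the 15 with the largest decrease. They were taken among called genes without overlap whose higher group averaged 10 scaled CPM or more. Predicted, clone-type and numeric names were left out. Circles are fresh libraries and squares control cultures. The replicates of each gene lie close together beside the distance between groups, with the widest spread at values of a few reads, as for Aplnr and Beta-s.

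Immediate early genes encode transcription factors and regulators that need no new protein for their induction. Of this list, 1 of 27 was at least 2-fold higher and 22 at least 2-fold lower (median log2 fold change -3.63), and the 27 genes summed to 16658 and 16572 scaled CPM in the fresh libraries and 1451 and 1519 in the control cultures. Besides Fos and Fosb, the zinc finger factor Egr1 was at 3539.8 and 3551 scaled CPM in the fresh libraries and 61.0 and 62.2 in the control cultures (log2 fold change -5.84, SE 0.044, limma adjusted p = 2.6e-25), and the nuclear receptor Nr4a1 at 914 and 949 scaled CPM in the fresh libraries and 19.1 and 20.1 in the control cultures. The mRNA decay factor Zfp36 was at 1478 and 1478 scaled CPM in the fresh libraries and 55.1 and 55.6 in the control cultures. All of these had fresh libraries far above the cultures. In the fresh cardiomyocyte libraries Fos was at 1279.8 and 1298, while the other 6 cultured libraries of the series ranged from 9.29 to 14.9. All cultured libraries of the series are fibroblast cultures. The 1 member that rose, Fosl1, encodes the AP-1 subunit Fra-1.

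The promoters of 2 members show the kind of element these genes are known for, the CArG box (CC, then 6 bases of A or T, then GG), which the serum response factor binds. The 250 bases before the start are shown 5′ to 3′ on the gene's strand, from RefSeq on GRCm38.p6, with the CArG box in capitals.
Zfp36 (chr7:28379229-28379478, minus strand): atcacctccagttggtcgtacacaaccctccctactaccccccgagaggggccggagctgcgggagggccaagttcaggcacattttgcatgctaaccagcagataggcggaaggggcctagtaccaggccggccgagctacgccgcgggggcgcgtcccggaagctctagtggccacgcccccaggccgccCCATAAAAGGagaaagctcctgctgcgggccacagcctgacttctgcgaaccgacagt
Egr2 (chr10:67537619-67537868, plus strand): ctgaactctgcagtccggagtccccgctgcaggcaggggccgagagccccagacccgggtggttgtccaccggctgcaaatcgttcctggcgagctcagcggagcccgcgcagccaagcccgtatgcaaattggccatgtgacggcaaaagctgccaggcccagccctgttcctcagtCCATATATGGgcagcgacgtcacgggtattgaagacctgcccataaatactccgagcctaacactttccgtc
In windows from 250 bases before to 50 after the start, a CArG box was found in 17.9% of 28 windows of 22 immediate early genes and in 1.63% of all 32851 windows, searched on both strands. The cyclic AMP response element TGACGTCA was in 10.7% of the 28 and 1.79% of all, and the AP-1 site TGANTCA in 3.57% and 7.81%. Several windows can belong to 1 gene and overlap. The 5 windows with a CArG box belonged to Zfp36 and Egr2 only. Most of them were Egr2 windows, some overlapping and sharing the same box, so the share counts windows more than genes. A match describes letters and not binding. Egr2, an Egr1 relative, went from 97.0 and 97.0 to 5.62 and 5.04 scaled CPM.

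Heat shock genes did not move together: 4 of 18 were at least 2-fold higher and 5 at least 2-fold lower (median log2 fold change -0.59). The inducible Hsp70 genes Hspa1b and Hspa1a, adjacent on chromosome 17 and near-identical in sequence so that reads may be split between them, were at 2401 and 2223 against 8.70 and 9.66 and 1726 and 1409.9 against 6.97 and 8.58 scaled CPM, fresh against cultured. Their co-chaperone Dnajb1 fell 6.69-fold and Hsph1 5.52-fold. The mitochondrial Hsp70 Hspa9 rose from 159 and 161 to 646 and 603, and the small heat shock protein Cryab from 63.4 and 64.1 to 315 and 328. The members at least 2-fold lower are known as stress-inducible genes, and those that rose include a mitochondrial chaperone.

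Acute inflammatory genes were mostly lower in the cultures: 4 of 22 were at least 2-fold higher and 14 at least 2-fold lower (median log2 fold change -1.88). Interleukin 1 beta, Il1b, was at 43.9 and 43.2 scaled CPM in the fresh libraries and 0.107 and 0.0564 in the control cultures. The cytokine feedback inhibitor Socs3 (446 and 432 against 30.0 and 28.6), the NF-kB regulator Nfkbiz (329 and 341 against 36.2 and 35.3) and complement C3 (552 and 544 against 70.1 and 74.4) also fell, while the macrophage growth factor Csf1 rose from 122 and 123 to 789 and 846. Chemokines divided evenly, with 7 of 20 at least 2-fold higher and 7 at least 2-fold lower (median log2 fold change 0.01). The neutrophil attractants Cxcl1 (206 and 203 against 2.09 and 2.72) and Cxcl2 (55.0 and 53.9 against 0.731 and 1.00) fell, and Ccl7 (10.7 and 10.7 against 78.6 and 75.8) and Ccl6 (17.1 and 16.9 against 219 and 191), which attract monocytes, rose. Among complement genes the secreted chaperone clusterin, Clu, rose 17.6-fold from 31.1 and 32.3 to 567 and 565, and C7 fell from 7.74 and 7.52 to 0.161 and 0.248.

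Interferon response genes, which carry antiviral functions, were higher in the cultures. Of this list, 23 of 25 were at least 2-fold higher and 0 at least 2-fold lower (median log2 fold change 1.90), and the 25 genes summed to 331 and 340.2 scaled CPM in the fresh libraries and 1385 and 1402 in the control cultures. Ifit1, which binds foreign RNA, was at 0.522 and 0.651 scaled CPM in the fresh libraries and 54.1 and 59.7 in the control cultures (log2 fold change 5.72, SE 0.13). Being below 1 CPM in both fresh libraries, Ifit1 had to differ by the way it was chosen. The ubiquitin-like Isg15 was at 2.56 and 2.41 scaled CPM in the fresh libraries and 65.1 and 71.5 in the control cultures, and the virus tether Bst2 at 14.5 and 14.1 scaled CPM in the fresh libraries and 168 and 173 in the control cultures. The protease Usp18, which removes Isg15 from proteins, rose 18.9-fold. The remaining 2 of the 25, which missed the 2-fold limit, passed the test and were higher. In MHC class I presentation, 4 of 12 were at least 2-fold higher and 0 at least 2-fold lower (median log2 fold change 0.71), with beta-2 microglobulin B2m at 386 and 396 scaled CPM in the fresh libraries and 1268 and 1116 in the control cultures.

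The windows of this list hold the interferon-stimulated response element (ISRE, taken here as a pair of GAAA with any 2 bases between, on both strands; neighbouring matches can overlap) more often than windows in general. It was in 52.4% of 21 windows of 18 of these genes and in 3.44% of all windows of the same length. The 250 bases before the start of 2 of the 6 members with the largest change are shown with the ISRE in capitals, adjoining matches joined.
Ifit1 (chr19:34640639-34640888, plus strand): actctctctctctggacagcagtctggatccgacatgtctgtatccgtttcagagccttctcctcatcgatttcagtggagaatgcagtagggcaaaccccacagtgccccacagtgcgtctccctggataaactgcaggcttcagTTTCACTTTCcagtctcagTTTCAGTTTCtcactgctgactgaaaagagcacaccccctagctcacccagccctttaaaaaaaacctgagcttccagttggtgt
Isg15 (chr4:156200819-156201068, minus strand): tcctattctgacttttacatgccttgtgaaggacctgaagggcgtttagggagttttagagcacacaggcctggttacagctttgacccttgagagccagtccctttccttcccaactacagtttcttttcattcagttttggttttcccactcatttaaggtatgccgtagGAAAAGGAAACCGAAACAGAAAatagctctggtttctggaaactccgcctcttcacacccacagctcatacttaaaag
The cultures had received a retrovirus and the fresh cells had not, and their part in the level of these genes was not tested. In the fresh cardiomyocyte libraries Ifit1 was at 4.11 and 3.82, below every cultured library.

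Lysosome genes were higher as a group. Of this list, 23 of 27 were at least 2-fold higher and 0 at least 2-fold lower (median log2 fold change 1.83), all 27 were higher at an adjusted p below 0.05, and they summed to 5083 and 5060.2 scaled CPM in the fresh libraries and 27258 and 26319 in the control cultures, 5.28 times as much. The aspartic protease cathepsin D, Ctsd, was at 442 and 437 scaled CPM in the fresh libraries and 5424 and 5171 in the control cultures (log2 fold change 3.59, SE 0.044, limma adjusted p = 1.5e-22), and the cysteine protease Ctsb at 665 and 666 scaled CPM in the fresh libraries and 4071 and 3909 in the control cultures. The membrane protein Lamp1 was at 456 and 441 scaled CPM in the fresh libraries and 1765 and 1767 in the control cultures. The subunit Atp6v0d2 of the proton pump, known from osteoclasts and macrophages, went from 0.553 and 0.417 to 58.3 and 55.2.

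Macrophages are rich in lysosomes, and 9 of 15 macrophage genes had risen at least 2-fold, so the 2 lists were set side by side in the other cultures of the series. In the 4 libraries that received MGT and a lentiviral hairpin, the macrophage genes summed to 1544 to 1744 scaled CPM, against 1407 and 1421 in fresh fibroblasts. In those libraries the lysosome genes summed to 18963 to 20216 against the 5060.2 and 5083 of fresh fibroblasts. Both sums were thus lower there than in the control cultures. In the 2 libraries given MGT without a hairpin, the macrophage genes summed to 4592 and 4452 and the lysosome genes to 29930 and 29568. All these other cultures differ from the control cultures in the factors or virus they received. The part of macrophage RNA in the lysosome values was not tested.

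The sequence CACGTG, an E-box that the lysosomal regulator TFEB is known to bind within a longer element, was added to the search after the values were seen. It was in 37.5% of 24 windows of 21 lysosome genes and in 7.15% of all windows. The bases before the start of Lamp1 and Ctsd are shown with CACGTG in capitals.
Lamp1 (chr8:13158911-13159160, plus strand): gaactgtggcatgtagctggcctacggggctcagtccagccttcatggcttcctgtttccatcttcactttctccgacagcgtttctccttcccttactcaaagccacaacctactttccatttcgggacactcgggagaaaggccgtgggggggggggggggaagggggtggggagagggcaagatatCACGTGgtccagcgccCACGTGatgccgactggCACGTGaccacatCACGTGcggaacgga
Ctsd (chr7:142387828-142388077, minus strand): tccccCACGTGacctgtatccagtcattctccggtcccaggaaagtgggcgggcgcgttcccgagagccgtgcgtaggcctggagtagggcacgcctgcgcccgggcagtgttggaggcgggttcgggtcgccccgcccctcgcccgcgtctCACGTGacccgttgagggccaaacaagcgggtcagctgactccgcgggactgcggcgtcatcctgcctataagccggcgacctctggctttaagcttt
Lamp1 has 4 copies in this stretch and Ctsd has 2.

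Genes of the integrated stress response and amino acid supply, which the factor ATF4 drives, also rose: 14 of 21 were at least 2-fold higher and 0 at least 2-fold lower (median log2 fold change 1.37). Asparagine synthetase, Asns, was at 8.83 and 9.14 scaled CPM in the fresh libraries and 191 and 182 in the control cultures (log2 fold change 4.30, SE 0.051, limma adjusted p = 1.1e-22). The glutathione-degrading Chac1 was at 0.887 and 0.482 scaled CPM in the fresh libraries and 43.8 and 42.6 in the control cultures, and the pseudokinase Trib3 at 2.97 and 2.45 scaled CPM in the fresh libraries and 80.6 and 82.2 in the control cultures. The serine synthesis enzyme Phgdh rose 10.9-fold to 268 and 283, and the cystine transporter Slc7a11 from 0.866 and 1.08 to 15 and 16.7. The message of Atf4 itself rose by less than 2-fold. Endoplasmic reticulum chaperones of the unfolded protein response moved less, with 3 of 20 at least 2-fold higher and 0 at least 2-fold lower (median log2 fold change 0.43).

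The C/EBP-ATF element TGATGNAA, also added after the values were seen, was in 28.6% of 21 windows of 18 genes of this list and in 3.97% of all windows. Shown are the bases before the start of Asns and Slc7a11, with the element in capitals on whichever strand it lies.
Asns (chr6:7693210-7693459, minus strand): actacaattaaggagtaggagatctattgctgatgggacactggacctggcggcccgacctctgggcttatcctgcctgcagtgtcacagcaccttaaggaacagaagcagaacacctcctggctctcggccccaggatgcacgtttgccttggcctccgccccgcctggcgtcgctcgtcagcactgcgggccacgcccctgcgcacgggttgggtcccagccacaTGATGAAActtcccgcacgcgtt
Slc7a11 (chr3:50443614-50443863, minus strand): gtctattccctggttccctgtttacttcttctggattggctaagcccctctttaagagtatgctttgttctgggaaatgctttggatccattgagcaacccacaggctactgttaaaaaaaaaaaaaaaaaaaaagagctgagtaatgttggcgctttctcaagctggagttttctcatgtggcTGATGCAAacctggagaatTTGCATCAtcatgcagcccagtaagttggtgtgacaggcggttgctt
Both genes were among the 6 of the list with the largest change.

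Targets of p53 and redox genes rose in part. Of the p53 targets, 11 of 20 were at least 2-fold higher and 2 at least 2-fold lower (median log2 fold change 1.26). The cell cycle inhibitor Cdkn1a (p21) was at 68.0 and 69.7 scaled CPM in the fresh libraries and 314 and 336 in the control cultures, and cyclin G1, Ccng1, at 46.8 and 46.3 scaled CPM in the fresh libraries and 479.5 and 471 in the control cultures. The death receptor Fas (4.49 and 5.04 against 35.9 and 33.8) and the ectodysplasin receptor Eda2r (9.63 and 8.92 against 81.4 and 84.8) rose, while the p53 targets Plk2 and Pmaip1 fell. Among genes of the NRF2 and antioxidant list, 8 of 26 were at least 2-fold higher and 2 at least 2-fold lower (median log2 fold change 0.68), led by Slc7a11, and the iron store ferritin heavy chain Fth1 rose from 619.8 and 589 to 2469 and 2350.1. The transferrin receptor Tfrc rose 13.7-fold, from 10.4 and 10.0 to 144 and 147.

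Contractile and cytoskeletal genes, which define the myofibroblast state, were higher in most members. Of this list, 15 of 25 were at least 2-fold higher and 1 at least 2-fold lower (median log2 fold change 1.5), and the 25 genes summed to 9108 and 9149 scaled CPM in the fresh libraries and 26092 and 26973 in the control cultures. Smooth muscle actin Acta2 (chr19:34241090-34255590) was at 491 and 504 scaled CPM in the fresh libraries and 5372 and 5609 in the control cultures (log2 fold change 3.46, SE 0.053, limma adjusted p = 3.6e-21), and transgelin Tagln at 111 and 114 scaled CPM in the fresh libraries and 2031 and 2018 in the control cultures. Calponin Cnn1 (5.76 and 6.12 against 55.9 and 53.1), leiomodin Lmod1 (6.17 and 5.51 against 76.1 and 75.7) and desmin Des (74.7 and 70.6 against 448 and 468) rose 8.54, 12.1 and 6.27 times. Smoothelin Smtn was the 1 member at least 2-fold lower. Targets of YAP and SRF, which respond to tension, had 8 of 19 at least 2-fold higher and 1 at least 2-fold lower (median log2 fold change 0.55), with the connective tissue growth factor Ctgf at 234 and 228 scaled CPM in the fresh libraries and 2444 and 2672 in the control cultures and Fhl2 at 48.4 and 47.0 against 770.0 and 767. In the integrin and focal adhesion list, 10 of 25 were at least 2-fold higher and 4 at least 2-fold lower (median log2 fold change 0.38); the laminin-binding Itga3 rose from 17.9 and 17.7 to 147 and 153 and the collagen-binding Itga2 fell from 18.5 and 17.7 to 3.30 and 3.33.

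Collagen genes did not share the direction of the contractile genes. Of the 20, 5 were at least 2-fold higher and 8 at least 2-fold lower (median log2 fold change -0.59). The chains of type I collagen, the main fibrillar collagen, moved little: Col1a1 was at 7619.9 and 7236 scaled CPM in the fresh libraries and 8205 and 9815 in the control cultures (log2 fold change 0.27, SE 0.077, limma adjusted p = 0.0029), and Col1a2 did not pass the test. Col3a1, the chain of the fibrillar type III collagen (chr1:45311538-45349706), was at 16760.0 and 16331 scaled CPM in the fresh libraries and 2835 and 2807 in the control cultures (log2 fold change -2.55, SE 0.063, limma adjusted p = 5.0e-18). The groups did not overlap for Col1a1 or Col3a1, as for 93.4% of all genes compared. The call for Col1a1 was lost without the second fresh library (adjusted p = 0.053, limma), without the second control culture (adjusted p = 0.053, limma) and after quantile normalization. Col15a1, of a basement membrane collagen, was at 2220.2 and 2195 scaled CPM in the fresh libraries and 42.2 and 48.2 in the control cultures, and the type VI chains Col6a1 (2676 and 2679 against 355 and 364) and Col6a2 (3049 and 3023 against 229 and 232) fell as well. The short-chain Col8a1 rose 26.3-fold, to 746 and 844, and the basement membrane chain Col4a1 rose from 6785 and 6678 to 7945 and 9189.

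**Figure D4:**
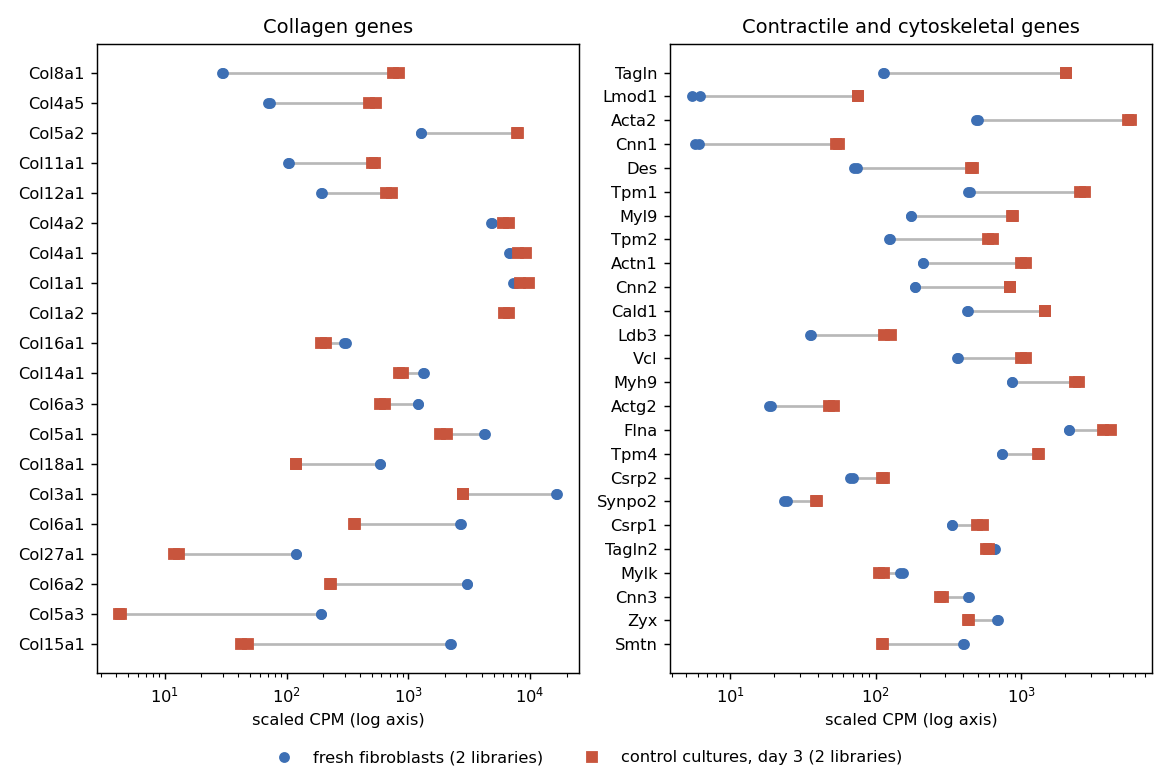
Scaled CPM (x axis, log scale) of 20 collagen genes and 25 contractile and cytoskeletal genes in the fresh libraries (circles) and the control cultures (squares), ordered by fold change. Most contractile genes lie to the right in the cultures, and collagen genes lie on both sides, with Col1a2 and Col1a1 close together and Col15a1 and Col5a3 far to the left.

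Enzymes that modify collagen were higher where they differed by 2-fold. In this list 7 of 20 were at least 2-fold higher and 0 at least 2-fold lower (median log2 fold change 0.56). Lysyl oxidase Lox, which crosslinks collagen, was at 141 and 142 scaled CPM in the fresh libraries and 847 and 921 in the control cultures, and the prolyl hydroxylase subunit P4ha1 at 90.6 and 92.4 scaled CPM in the fresh libraries and 429 and 430.0 in the control cultures. The lysyl hydroxylase Plod2 rose 4.26-fold. For the other matrix genes, 6 of 35 were at least 2-fold higher and 17 at least 2-fold lower (median log2 fold change -0.98). The proteoglycans decorin Dcn (2465 and 2497 against 254 and 233), lumican Lum (694 and 673 against 48.8 and 48.2) and asporin Aspn (694 and 708 against 26.9 and 23.1) and the tenascin Tnxb (1262 and 1245 against 25.8 and 29.1) fell. Periostin, Postn, often used as a marker of activated fibroblasts, fell from 6868 and 6866 to 2355 and 2339 scaled CPM (log2 fold change -1.55, SE 0.048, limma adjusted p = 1.9e-16), whereas fibronectin Fn1 rose from 8055 and 8007 to 20841 and 22656.

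Matrix proteases and their inhibitors moved both ways: 7 of 24 were at least 2-fold higher and 8 at least 2-fold lower (median log2 fold change -0.06). Stromelysin Mmp3 was at 0.313 and 0.117 scaled CPM in the fresh libraries and 38.4 and 38.6 in the control cultures. The metalloprotease inhibitor Timp1 (16.9 and 16.2 against 109 and 105) rose, and the aggrecanase Adamts4 (110.5 and 111 against 7.13 and 8.43) fell. The inhibitor Timp4, at 12.9 and 11.9 scaled CPM in the fresh libraries, had 1 and 0 reads in the cultures.

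Genes used to mark resident fibroblasts were lower in the cultures with exceptions. Of this list, 2 of 26 were at least 2-fold higher and 16 at least 2-fold lower (median log2 fold change -2.13). The adventitial markers Pi16 (76.9 and 75.3 against 0.656 and 0.789), Cd34 (1164 and 1161 against 31.0 and 34.0), Scara5 (59.0 and 56.4 against 0.258 and 0.135) and Dpt fell, and the homeobox gene Meox1 fell from 84.7 and 85.3 to 5.82 and 4.64. Cd34 and the Ly6 gene Ly6c1 are also expressed by endothelial cells, whose markers fell at the same time. S100a4, the calcium-binding protein also called FSP1, rose from 11 and 11.8 to 307 and 284 (log2 fold change 4.64, SE 0.052, limma adjusted p = 4.8e-23). Pdgfrb, the receptor shared by fibroblasts and pericytes, was at 509 and 516 against 494 and 512 and did not pass the test, though it passed as lower without scaling or after quantile normalization. S100a4 and Thy1 were the 2 members that rose at least 2-fold.

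Cardiac and mesodermal transcription factors were more often lower: 4 of 29 were at least 2-fold higher and 12 at least 2-fold lower (median log2 fold change -0.69). Meox2 (56.3 and 57.3 against 0.688 and 0.225), Tbx2 (60.1 and 59.5 against 6.22 and 5.78) and Tbx3 (35.7 and 36.7 against 1.71 and 2.21) fell. The epicardial T-box gene Tbx18 rose by less than 2-fold, from 70.4 and 70.9 to 123 and 124, and Tcf21 stayed between 158 and 166 in all 4 libraries.

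Imprinted growth genes, which are high in late fetal and newborn tissue and are known to be switched down together after birth, were lower. Of this list, 0 of 17 were at least 2-fold higher and 11 at least 2-fold lower (median log2 fold change -2.61), and the genes summed to 15134 and 15381 scaled CPM in the fresh libraries and 2428 and 2467 in the control cultures. The noncoding H19 (chr7:142575529-142578143) was at 3987 and 4086 scaled CPM in the fresh libraries and 48.1 and 40.0 in the control cultures (log2 fold change -6.51, SE 0.058, limma adjusted p = 1.2e-24), and its neighbour insulin-like growth factor 2, Igf2 (chr7:142650766-142666816), at 3460.3 and 3534 scaled CPM in the fresh libraries and 72.9 and 78.3 in the control cultures (log2 fold change -5.52, SE 0.039, limma adjusted p = 2.4e-25). Mest (1020.0 and 1031 against 41.3 and 47.0), Dlk1 (232 and 219 against 6.57 and 7.31) and the cell cycle inhibitor Cdkn1c (140.0 and 132 against 6.31 and 6.56) fell as well. The fresh cardiomyocyte libraries held H19 at 6136 and 6088, while the other 6 cultured libraries ranged from 40.4 to 57.4.

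Growth factor genes changed in content more than in number, with 10 of 32 at least 2-fold higher and 6 at least 2-fold lower (median log2 fold change 0.29). Brain-derived neurotrophic factor Bdnf was at 1.98 and 1.69 scaled CPM in the fresh libraries and 64.0 and 67.8 in the control cultures. The epidermal growth factor family ligand Ereg (4.95 and 5.38 against 49.9 and 50.8), Pdgfa (5.59 and 4.78 against 35.3 and 40.4) and the binding protein Igfbp2 (1.42 and 0.937 against 101 and 104) rose, and Pdgfb, which endothelial cells also make, fell from 71.3 and 71.7 to 10.6 and 10.7. In the TGF-beta and BMP list, 8 of 30 were at least 2-fold higher and 9 at least 2-fold lower (median log2 fold change -0.10). The latent TGF-beta binding protein Ltbp4 was at 2597 and 2506 scaled CPM in the fresh libraries and 207 and 228 in the control cultures, the BMP target Id1 at 77.9 and 70.8 against 11.3 and 14.2, and the activin antagonist follistatin Fst rose from 1.13 and 1.15 to 22.8 and 23.6.

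Wnt and Notch genes were lower in most members. Of the Wnt list, 1 of 26 was at least 2-fold higher and 16 at least 2-fold lower (median log2 fold change -1.53). The secreted antagonists Sfrp2 (73.8 and 71.1 against 2.89 and 2.63) and Dkk3 (181 and 182 against 31.1 and 30.3) and the receptor Fzd4 (115 and 114 against 15.4 and 16.3) fell, and the ligand Wnt9b, at 13.1 and 13.4 in the fresh libraries, had at most 1 read in each culture. Of the Notch list, 0 of 16 were at least 2-fold higher and 12 at least 2-fold lower (median log2 fold change -3.14), with a sum of 2051 and 2062 scaled CPM in the fresh libraries and 577 and 613 in the control cultures. The ligand Dll4 (51.6 and 48.8 against 0.441 and 0.147), the receptor Notch4 (149 and 147 against 3.85 and 4.80) and the target Hey1 (44.8 and 45.7 against 0.322 and 0.406) are vascular genes, and Notch3 (554 and 555 against 56.2 and 67.5) marks pericytes. The endothelial list (13 of 14 genes at least 2-fold lower, with a sum of 619 and 645 scaled CPM in the control cultures) fell in the same libraries. In the pericyte and smooth muscle list, 7 of 10 genes were at least 2-fold lower. The part of these cell types in the Notch values was not tested.

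Receptors for vasoactive signals and ion channels were also more often lower. For receptors, 2 of 23 were at least 2-fold higher and 17 at least 2-fold lower (median log2 fold change -1.89). The natriuretic peptide receptor Npr1 (107 and 104 against 1.83 and 2.41) and the endothelin receptor Ednra (33.0 and 35.5 against 1.83 and 1.44) fell, and the angiotensin receptor Agtr2 went from 7.81 and 7.91 scaled CPM to no read in either culture. For channels, 4 of 21 were at least 2-fold higher and 9 at least 2-fold lower (median log2 fold change -0.51). Besides Abcc9 and Kcnj8, the T-type calcium channels Cacna1g (48.1 and 47.3 against 1.63 and 1.82) and Cacna1h (19.5 and 22.1 against 0.559 and 0.428) and the sodium channel Scn7a (51.1 and 50.6 against 3.61 and 3.56) fell.

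Genes of DNA replication and mitosis were lower in most members, nearly all by less than 2-fold, and G1 regulators spread more widely. In the DNA replication list, 23 of 27 genes were lower at an adjusted p below 0.05 but 2 were at least 2-fold lower, led by the polymerase subunit Pole (75.8 and 76.5 against 29.9 and 31.1). In the mitosis list, 20 of 30 were lower and 6 higher, and none reached 2-fold. The proliferation marker Mki67 was at 406 and 430.5 scaled CPM in the fresh libraries and 242 and 245 in the control cultures (log2 fold change -0.78, SE 0.038, limma adjusted p = 2.2e-13), and cyclin B1, Ccnb1, rose from 33.6 and 34.7 to 40.2 and 41.8. Of G1 cyclins and inhibitors, 3 of 22 were at least 2-fold higher and 6 at least 2-fold lower (median log2 fold change -0.29). Cyclin D1, Ccnd1, fell from 299 and 305 to 105 and 112 while the inhibitor Cdkn2b (p15) rose from 0.678 and 0.599 to 7.46 and 7.47. Proliferation genes were thus expressed in both groups. In the promoter windows, TTTGAA, part of the element that silences mitotic genes outside division, was in 76.9% of 26 mitosis windows and 17.9% of all. The E2F-like TTTNNCGC was in 48.1% of 27 DNA replication windows and 5.17% of all.

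Ribosome and energy genes were higher in most members, many of them by less than 2-fold. All 30 cytosolic ribosomal protein genes were higher, 1 of them at least 2-fold (median log2 fold change 0.79), and many of these genes have pseudogene copies that may take reads. Rps2 was at 739 and 731 scaled CPM in the fresh libraries and 1423 and 1434 in the control cultures. Ribosome biogenesis genes were higher in 20 of 22, and 6 of 22 at least 2-fold. In glycolysis and glucose uptake, 17 of 22 genes were higher and 4 lower at an adjusted p below 0.05, with 10 at least 2-fold higher and 0 at least 2-fold lower (median log2 fold change 0.78), and hexokinase Hk2 at 14.7 and 14.9 against 119 and 123 and the glucose transporter Slc2a1 at 25.3 and 25.4 against 81.8 and 88.5. Of 30 respiratory chain genes 29 were higher (median 0.47), and 4 at least 2-fold.

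Fatty acid and cholesterol genes differed in their counts. In the fatty acid oxidation list, 6 of 22 genes were higher and 11 lower at an adjusted p below 0.05, with 0 at least 2-fold higher and 5 at least 2-fold lower (median log2 fold change -0.08). The fatty acid binding protein Fabp4 (821 and 803 against 19.2 and 17.6) and the transporter Cd36 (801 and 809 against 247 and 237), both known from capillary endothelium, fell, while the mitochondrial transferase Cpt2 rose by less than 2-fold (14.9 and 13.7 against 29.2 and 27.7). For cholesterol synthesis, 10 of 23 were at least 2-fold higher and 0 at least 2-fold lower (median log2 fold change 0.87). Lanosterol synthase Lss (6.31 and 5.68 against 29.0 and 31.9), farnesyl diphosphate synthase Fdps (15.6 and 14.6 against 52.3 and 50.7) and squalene epoxidase Sqle (16 and 14.4 against 52.5 and 49.5) rose, with no overlap. CCAAT was in 84.2% of 19 windows of this list, 80.8% of 26 mitosis windows and 37.4% of all. The sterol element TCACNCCAC was in 1 of the 19 windows (5.26%), that of Hmgcs1, and in 1.24% of all.

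Chromatin and splicing genes completed the lists. Of histone variant, polycomb and related chromatin genes, 1 of 18 was at least 2-fold higher and 7 at least 2-fold lower (median log2 fold change -0.67). The DNA-bending protein Hmgb2 (175 and 176 against 47.8 and 43.6) and the chromatin protein Hmgn2 (258 and 258 against 84.5 and 76.5) fell. The DNA methyltransferase Dnmt3b (12.3 and 12.4 against 3.56 and 3.71) fell as well. Hmga2, a chromatin protein of growing embryonic cells, rose from 11.2 and 11.2 to 38.9 and 42.7. Of splicing factors, 1 of 23 was at least 2-fold higher and 3 at least 2-fold lower (median log2 fold change -0.34). Ptbp1, the splicing repressor that other cultures of the series were silenced for, fell from 487 and 490.3 to 354 and 361 (log2 fold change -0.45, SE 0.034, limma adjusted p = 2.2e-10), and its neuronal relative Ptbp2 from 68.2 and 68.6 to 26.1 and 23.6.

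**Figure D5:**
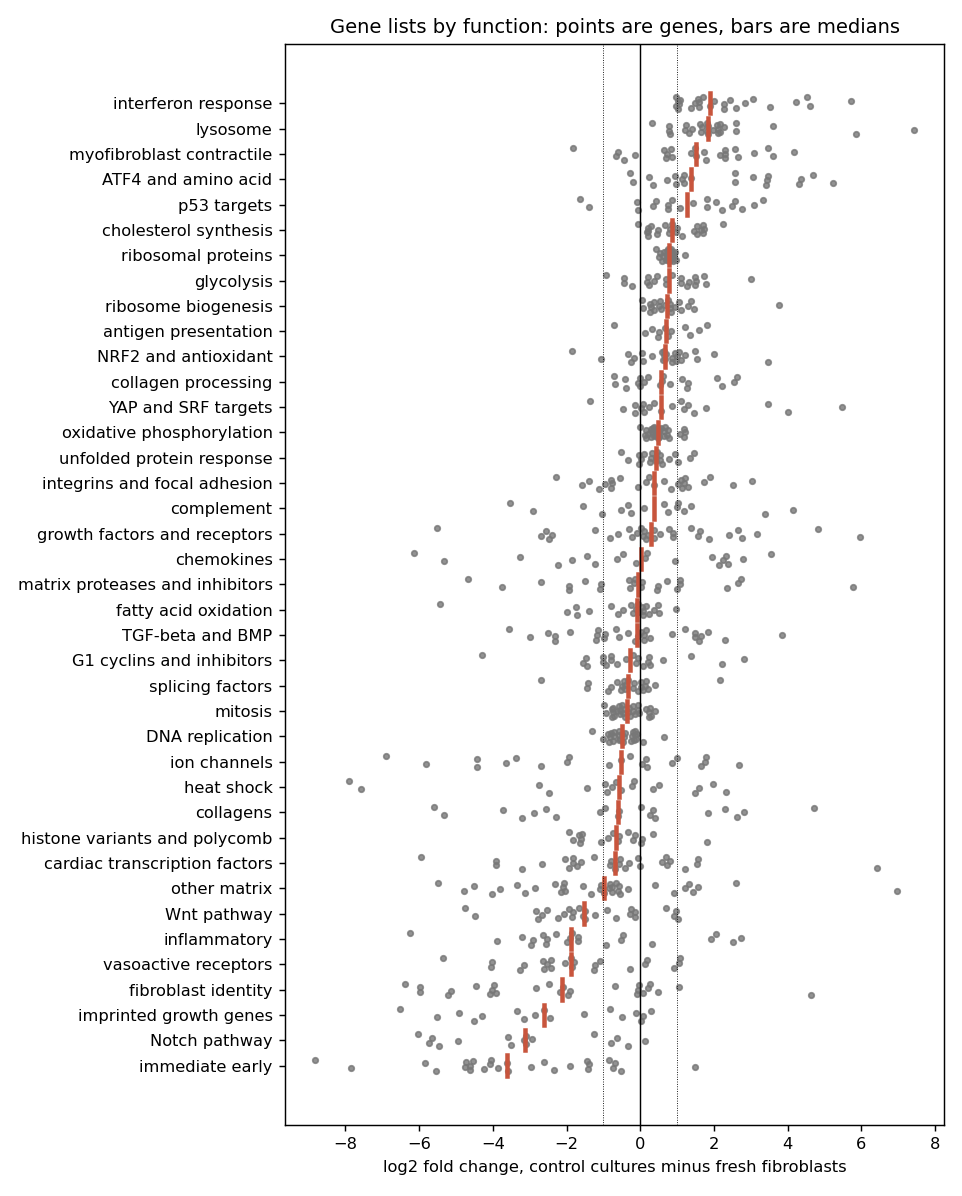
Log2 fold change, control cultures minus fresh fibroblasts (x axis), of each compared gene (grey points) in 39 lists by function, ordered by the median of the list (red bar); dotted lines mark a 2-fold change. Medians run from 1.90 for interferon response to -3.63 for immediate early genes, and lists such as complement and chemokines spread to both sides.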

How the data were processed

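Polyadenylated RNA was sequenced with a stranded kit, per the labels' protocols. The authors' deposited table holds CPM of 23423 genes, with 1 column for each of 12 libraries. FastQC, TopHat2 2.1.0 and HTSeq 0.6.1p1 and the mm10 build are named in the submitters' processing notes. Which annotation and strand setting HTSeq was run with is not given in the sources used here. Values of overlapping and near-identical genes are therefore uncertain. Values were whole multiples of 1 read within 0.1 reads for 100% of values, which gave the depth.

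Each library's CPM was scaled by its median-of-ratios factor over the 13977 genes that reached 1 CPM in 2 or more of the 12 libraries. The log2 of scaled CPM + 0.5 of these genes entered a limma 3.58.1 fit (R 4.3.3), 1 mean for each of 6 groups of 2, 6 residual degrees of freedom, eBayes with trend. Tests were two-sided, adjusted by Benjamini-Hochberg over all 13977 genes, and the fold limit was 2. A permutation test of 2 against 2 cannot go below p = 0.333 and was not run. Alternatives were other scalings, pseudocounts, filters and fits, each library left out, and edgeR 4.0.16 on the recovered reads.

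The genes compared and the 49 lists (39 by function, 10 of markers) were chosen with earlier results of these data known. Named genes are the 15 largest changes each way among called genes whose groups did not overlap. The higher group of each had a mean of 10 scaled CPM or more. Up to 6 members of each list with the largest change were also named, as were Thy1, Ptbp1, Ptbp2, Mef2c, Gata4 and Tbx5. Predicted and clone-type names (such as Gm, LOC, Rik, AI, AW and AU) and numeric names were left out of the 15 each way. Numeric names alone were 20 of the genes compared. Other named genes were chosen after their values were seen. Positions are from GENCODE on GRCm38 and promoters from RefSeq on GRCm38.p6, matched by symbol, with 32851 windows of 27025 genes. Figures were drawn with matplotlib 3.10.9.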

Additional observations from a re-analysis of the deposited data

How the results depend on the processing

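The numbers of genes called kept within 1.5 times of the reported values in every alternative run. Genes at least 2-fold higher ranged from 1320 (limma's treat against a 2-fold change) to 2092 (quantile normalization), and those at least 2-fold lower from 1881 (pseudocount 2) to 2694 (no scaling). Leaving out each of the 4 libraries in turn, which assumes that the lone library of a group varies like the other groups, gave 1657 to 1698 genes at least 2-fold higher, 2362 to 2480 at least 2-fold lower, 5695 to 5872 higher and 5575 to 5753 lower. edgeR's quasi-likelihood test on the recovered reads called 1917 and 2545 at 2-fold. The median log2 change over all genes tested was -0.10 without scaling and 0.11 after quantile normalization, so changes near 0 depend on the scaling. Of 330 named genes that were called, 328 kept their call and direction in all 15 alternatives run on them. The exceptions were Col1a1 and S100b, and S100b turned from lower to 0.21 higher after quantile normalization (adjusted p = 0.27, limma). Gli3, Pdgfrb, Tcf21 and Cd4, not called, passed in at least 1 alternative. Of 98 counts of list members at 2-fold, 17 moved by over 1.5 times, or from or to 0, in some alternative other than treat. With the replicate number as a block, 5961 genes were higher and 5891 lower, 1663 and 2440 of them at 2-fold. With 2 libraries in a group the numbers could not be shown to pair samples (correlation of same-numbered deviations -0.012 between these groups), and no other call was read from the block. Depth limits values of a few reads, as for Aplnr and Timp4.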

Other observations

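A few genes of the hedgehog pathway are given here, chosen after their values were seen and not from a list. The transcription factor Gli1, itself a target of the pathway, was at 41.0 and 42.5 scaled CPM in the fresh libraries and 0.0645 and 0.0451 in the control cultures (log2 fold change -6.25, SE 0.11). Being below 1 CPM in both cultures, Gli1 had to differ by the way it was chosen. The receptor Ptch1 fell from 62.5 and 62.6 to 8.93 and 9.82, the factor Gli2 from 88.2 and 91.1 to 14.3 and 16.2 and the antagonist Hhip from 1.44 and 1.00 to 0.0645 and 0.0789. The signal transducer Smo fell by less, from 143 and 138 to 102 and 106, and Gli3 (109.8 and 112 against 101 and 116) did not pass the test (adjusted p = 0.55, limma), although it did as lower without scaling and without the second control culture (adjusted p = 0.023). The leptin receptor Lepr, found on perivascular stromal cells, fell from 151 and 150.0 to 3.04 and 3.68.

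The genes that follow were likewise chosen after their values were seen, and stand for no group. Genes that rose include the elastase Mmp12 (7.30 and 7.02 against 299 and 278), the lipid receptor Trem2 (11.4 and 11.6 against 96.0 and 97.9), the scavenger receptor Msr1 (23.5 and 22.5 against 239 and 246) and galectin 3, Lgals3 (20.3 and 21.5 against 532 and 546). In the 2 libraries given MGT and a non-targeting hairpin, Mmp12 was at 172 and 173 and Lgals3 at 236 and 234. Genes that fell include the nitric oxide synthase Nos3 (149 and 144 against 1.58 and 1.38), the factors Sox17 (48.6 and 45.6 against 0.666 and 0.902) and Sox18 (47.1 and 44.3 against 0.645 and 0.699) and the lymphatic receptor Lyve1 (54.7 and 55.1 against 0.623 and 0.868). The atrial and fetal myosin light chain Myl4 rose from 27.1 and 27.6 to 879 and 907 and the perinatal skeletal heavy chain Myh8 from 0.636 and 0.586 to 15.9 and 16. The matricellular gene Wisp1 rose from 12.8 and 13.9 to 551 and 604, beside its relative Wisp2, and the BMP family ligand Bmp3 from 0.741 and 0.573 to 43.0 and 43.1.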
